A study of Mus musculus with 6 samples.

Results

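The genes described here are 10 amino acid transporter genes of growing cells: Slc7a5, Slc3a2, Slc43a2 and Slc7a6, Slc1a5 and Slc1a4, Slc38a1 and Slc38a2, Slc7a1 and Slc6a9. They were taken by symbol from a table of 23494 genes, in which each of the 10 had a row and a value above 0 TPM (transcript abundance as a share of each library corrected for transcript length) in all 6 libraries. The study compared wild-type female C57BL/6 mice carrying subcutaneous B16F10 tumours, a transplantable mouse melanoma line, after daily intraperitoneal injection of recombinant MANF (rMANF, mesencephalic astrocyte-derived neurotrophic factor, 2 μg/kg) or of vehicle (PBS). Treatment began at a mean tumour volume near 60 mm3 with 8 mice per arm, and 3 rMANF and 3 vehicle libraries of tissue labelled heart were sequenced. The age of the mice and the choice of 3 libraries from 8 mice are not stated in the labels, which call the libraries of each group biological replicates. The deposited column names of the vehicle libraries begin with IgG, while their treatment label is vehicle.

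Dividing cells take up amino acids faster than resting cells, and they do so with a recurring set of carriers. A light chain such as SLC7A5 is joined by a disulphide bond to the heavy chain SLC3A2 and brings leucine and other large neutral amino acids into the cell in exchange for intracellular amino acids such as glutamine. SLC1A5 and the SLC38 carriers supply that glutamine, and leucine inside the cell feeds the activation of the growth kinase complex mTORC1. Several of these genes are known targets of the transcription factors ATF4, made when amino acids run short, and MYC.

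The libraries carried little RNA of heart muscle cells, although the labels give heart as the tissue. All 13 cardiomyocyte markers had rows and together summed to 10.8 to 14.3 TPM in rMANF libraries and 11.0 to 71.3 TPM in vehicle libraries. Highest on average were Tnnt2 (4.86 to 11.5 TPM over the 6 libraries), Mb (0.303 to 23.5 TPM) and Myl2 (0 to 14.9 TPM). Nppa, the atrial peptide gene, reached at most 0.541 TPM. Of 7 melanocyte markers, 3 had rows (Mitf, Pmel and Sox10), which summed to 7.44 to 10.2 TPM with rMANF and 7.96 to 12.6 TPM with vehicle. Nearly all of that was Mitf, at 7.36 to 12.2 TPM over the 6 libraries, while Pmel reached at most 0.341 TPM and Sox10 at most 0.160 TPM. Mlana, Tyr, Tyrp1 and Dct had no row, which is not a value of 0 TPM, so their levels are unknown. The 6 markers of cycling cells summed to 916 to 964 TPM with rMANF and 937 to 1052 TPM with vehicle. Marker sums of other cell types separated the groups. The 11 macrophage markers summed to 1865 to 2553 TPM with rMANF and 3203 to 3636 TPM with vehicle, and the 11 skeletal muscle markers to 7.04 to 19.3 TPM with rMANF and 27.6 to 1217 TPM with vehicle. The 7 endothelial markers summed to 61.5 to 76.4 TPM with rMANF and 40.0 to 60.8 TPM with vehicle. The 8 T and NK cell markers summed to 17.4 to 36.1 TPM with rMANF and 41.1 to 106 TPM with vehicle. The B cell, neutrophil, fibroblast and erythroid sums overlapped between groups. The part of these cell types in the transporter differences was not tested, and in bulk tissue fewer cells of a type and less RNA per cell cannot be told apart.

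Of the 10 transporter genes, 9 had a higher mean log2 value with rMANF than with vehicle (57.3% of the 12865 tested genes) and 1, Slc38a2, a lower one, although the mean of Slc7a6 turned below that of vehicle under median-of-ratios scaling and quantile normalization. For 8 of the 10 every rMANF library lay above every vehicle library, against 18.9% of tested genes, and for 0 of the 10 every rMANF library lay below every vehicle library, against 9.02%. After adjustment no transporter gene passed the threshold: limma with Benjamini-Hochberg adjustment called 0 of the 10 at an adjusted p of 0.05, as it called 0 of the 12865 tested genes (0%). At an unadjusted p of 0.05, 6 of the 10 passed, all higher, against 13.9% of tested genes that passed in that direction. With unequal library weights, an alternative fit, 2 of the 10 passed (Slc7a5 and Slc1a4), against 5.73% of tested genes. No other tool was run. The 10 genes had been chosen with results of these libraries known, so these counts describe them and carry no test.

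**Figure D1:**
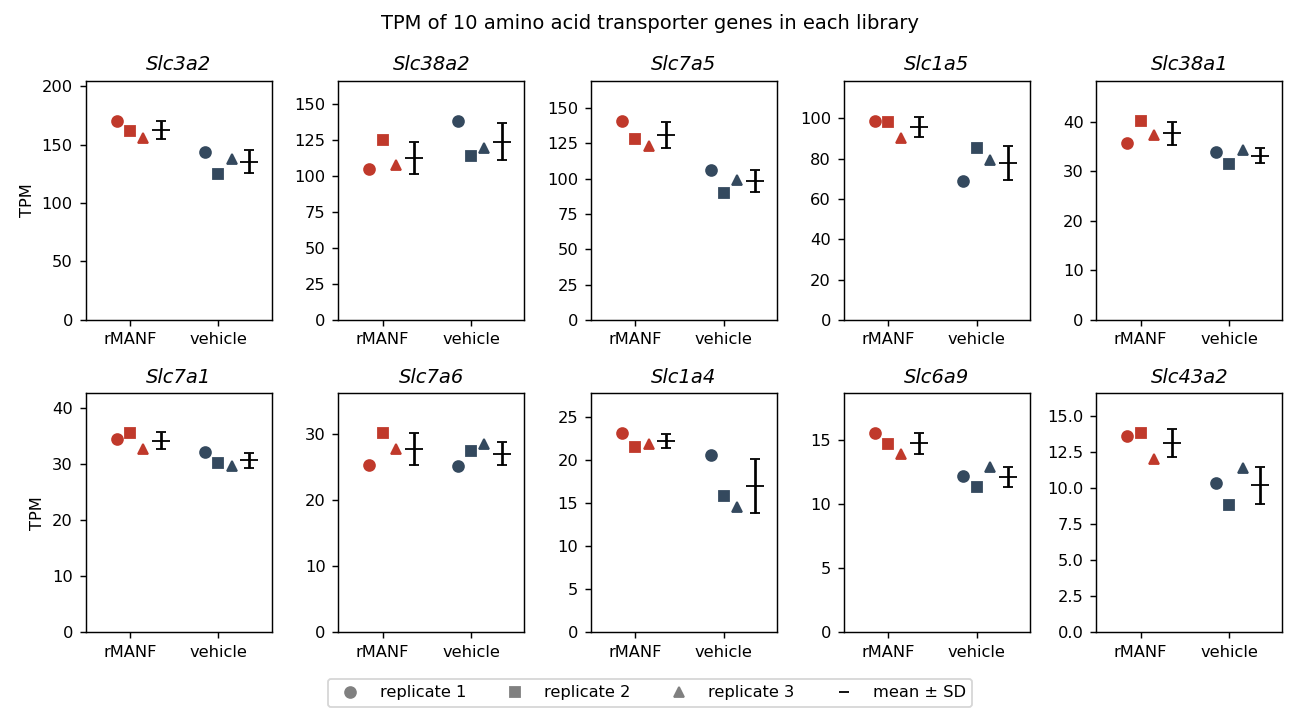
TPM (vertical axes, each starting at 0) of the 10 transporter genes in the 3 rMANF and 3 vehicle libraries, ordered by mean level, with the mean ± SD of each group beside the points. In 8 panels all rMANF points lie above all vehicle points, and in the panels of Slc38a2 and Slc7a6 the groups overlap.

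Slc7a5, which encodes the large neutral amino acid transporter LAT1, showed the widest separation of the 10. It lies on chromosome 8 (121881150 to 121907694, minus strand, GRCm38). Its level was 141, 128 and 124 TPM in rMANF replicates 1, 2 and 3, against 106, 90.1 and 98.8 TPM in vehicle replicates 1, 2 and 3. The lowest rMANF library stood 17.7 TPM above the highest vehicle library. The means were 131 ± 9.08 TPM with rMANF and 98.3 ± 7.88 TPM with vehicle (SD, n = 3 each), a ratio of 1.33. The log2 difference, computed here and below on TPM + 1 as rMANF minus vehicle, was 0.41 ± 0.09 (SE; 95% interval 0.20 to 0.63), and limma's adjusted p was 0.0986. At an adjusted p of 0.10 it was the 1 transporter gene called, among 249 genes called higher (1.94% of tested genes).

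Slc3a2, the heavy chain that carries SLC7A5 to the cell surface, was the most abundant transporter gene of the 10. On chromosome 19 (8706882 to 8723369, minus strand), it measured 170, 162 and 155 TPM in the rMANF libraries and 144, 125 and 138 TPM in the vehicle libraries. Here too the groups did not overlap, with 11.8 TPM between the nearest libraries. The log2 difference was 0.26 ± 0.08 (SE; 95% interval 0.07 to 0.46), smaller than that of its light chain, with a limma adjusted p of 0.152. Slc7a5 and Slc3a2 together summed to 294 ± 16.5 TPM with rMANF and 234 ± 17.5 TPM with vehicle (SD, n = 3 each).

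Relative to its heavy chain, the light chain Slc7a5 stood higher in every rMANF library than in every vehicle library. The ratio of Slc7a5 to Slc3a2 TPM was 0.828, 0.791 and 0.795 in the rMANF libraries and 0.737, 0.722 and 0.715 in the vehicle libraries. A ratio within a library does not depend on the scaling between libraries. It is not freed from the GC trends of the libraries, given below, where its genes differ in GC content (Slc7a5 56.7%, Slc3a2 55.3%). No ratio was computed with the GC trend removed, and the part of that trend in the ratios was not tested. These ratios did not overlap between groups and differed by 0.15 ± 0.02 on the log2 scale (SE). An exact permutation test (two-sided, 20 assignments of libraries to groups) gave p = 0.1, the smallest this design allows, and 0.133 after adjustment over the 4 ratios tested.

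Slc7a6 encodes another light chain of SLC3A2, which exchanges cationic amino acids such as arginine for neutral ones and sodium. Located on chromosome 8 as well (106168857 to 106198706, plus strand), it measured 25.3, 30.1 and 27.7 TPM with rMANF and 25.1, 27.5 and 28.5 TPM with vehicle. The libraries of the groups were interleaved. Its log2 difference of 0.03 ± 0.10 (SE) had a 95% interval of −0.20 to 0.26 (limma, adjusted p = 0.886). Relative to this light chain, Slc7a5 stood at 5.57, 4.25 and 4.46 times its TPM in the rMANF libraries and at 4.22, 3.28 and 3.46 times in the vehicle libraries. The lowest rMANF ratio lay just above the highest vehicle ratio (exact permutation p = 0.1, adjusted 0.133).

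Among the 6 light chain genes whose products pair with SLC3A2, Slc7a5 held 72.9 to 76.9% of the summed TPM in rMANF libraries and 66.8 to 68.9% in vehicle libraries. Slc7a6 held 13.8 to 17.1% with rMANF and 16.3 to 20.3% with vehicle. Slc7a7, a light chain that exports arginine and is expressed in macrophages, held 6.21 to 7.78% with rMANF and 7.51 to 10.2% with vehicle. Slc7a8 held 1.66 to 2.83% with rMANF and 3.21 to 4.58% with vehicle, shares that did not overlap between groups. Its TPM values did overlap, at 2.78 to 5.20 TPM with rMANF and 4.68 to 6.26 TPM with vehicle. A higher Slc7a5, the largest part of the sum, lowers the other shares. The shares of Slc7a11 did not overlap either, at 0.137 to 0.293% with rMANF and 0.312 to 0.778% with vehicle. Slc7a11, the cystine carrier xCT, was at most 0.538 TPM with rMANF and 1.05 TPM with vehicle, and Slc7a10 at most 0.188 TPM with rMANF and 0.0916 TPM with vehicle. Slc7a5 was thus the main light chain transcript in all 6 libraries.

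Slc43a2 encodes LAT4, a facilitated carrier of branched-chain amino acids, phenylalanine and methionine that needs no heavy chain. On chromosome 11 (75531694 to 75577575, plus strand), it was the least abundant of the 10, at 13.6, 13.8 and 12.0 TPM with rMANF and 10.3, 8.83 and 11.4 TPM with vehicle. The groups were separated by 0.599 TPM, less than the SD of either group (0.993 TPM with rMANF and 1.28 TPM with vehicle). The log2 difference was 0.34 ± 0.12 (SE; limma, adjusted p = 0.174). Exons of an antisense gene, Gm45606 (1.42 to 2.75 TPM), share 922 bases with those of Slc43a2, and without strand the reads of the 2 genes cannot be told apart.

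**Figure D2:**
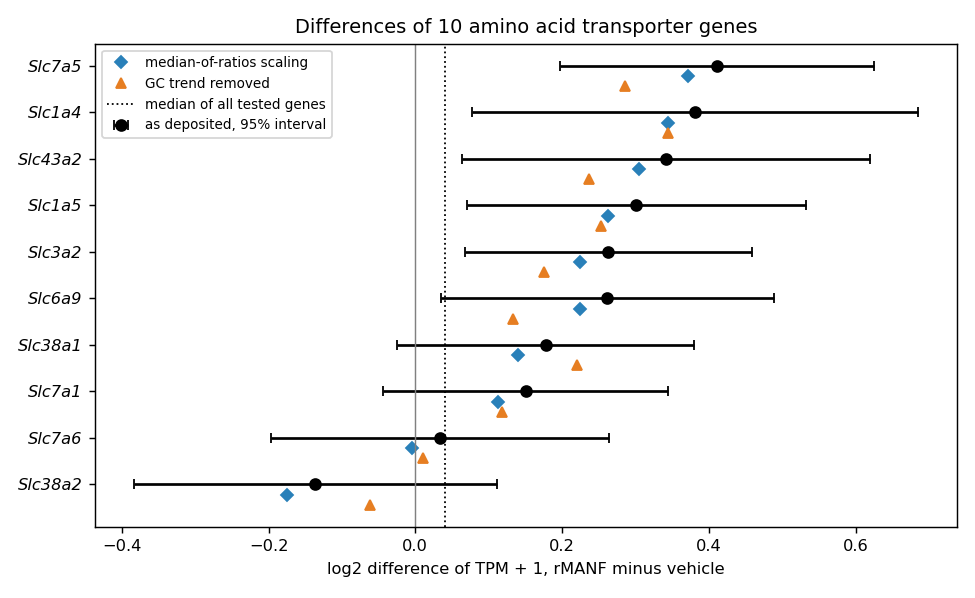
Log2 differences of TPM + 1 (horizontal axis, rMANF minus vehicle) of the 10 transporter genes with 95% intervals from limma (black), after median-of-ratios scaling (blue) and after removal of the GC trend of each library (orange). Slc7a5 leads at 0.41, 6 intervals lie above 0, and those of Slc38a1, Slc7a1, Slc7a6 and Slc38a2 include 0.

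The glutamine exchanger gene Slc1a5, which encodes ASCT2, also lay higher with rMANF. It maps to chromosome 7 (16781340 to 16798274, plus strand). Its levels were 98.8, 98.4 and 90.3 TPM in the rMANF libraries and 68.7, 85.3 and 79.5 TPM in the vehicle libraries. The vehicle libraries spread more than the rMANF libraries, and vehicle replicate 1 was the lowest. The means were 95.8 ± 4.84 TPM with rMANF and 77.8 ± 8.39 TPM with vehicle (SD, n = 3 each), and the log2 difference was 0.30 ± 0.10 (SE; limma, adjusted p = 0.159). Under median-of-ratios scaling the difference was 0.26 and the groups of Slc1a5 overlapped.

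Slc1a4 encodes ASCT1, the relative of ASCT2 that exchanges alanine, serine, cysteine and threonine, and it was less abundant. On chromosome 11 (20302180 to 20332713, minus strand), it measured 23.2, 21.6 and 21.9 TPM with rMANF and 20.6, 15.8 and 14.6 TPM with vehicle. Vehicle replicate 1 was here the highest of its group and lay within 1.02 TPM of the lowest rMANF library. The log2 difference was 0.38 ± 0.13 (SE; limma, adjusted p = 0.169), and it ran from 0.28 without vehicle replicate 3 to 0.52 without vehicle replicate 1. Slc1a5 and Slc1a4 therefore differed in which vehicle library was low. The ratio of Slc1a5 to Slc1a4 was 4.27, 4.56 and 4.12 with rMANF, inside the range of 3.34, 5.38 and 5.46 with vehicle (exact permutation p = 0.8, also after adjustment).

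The start of Slc1a4 carried a motif known from ATF4 target genes. RefSeq promoter windows (250 bases before to 50 after a start, GRCm38.p6) were found for 7 of the 10 genes in 12 windows, and Slc7a5, Slc1a5 and Slc38a1 had none in that table. Both strands were searched for TGATGNAA, the core shared by many C/EBP-ATF elements, and for CACGTG, the E-box that MYC binds. The first was found in 1 of these 12 windows, that of Slc1a4, and in 3.97% of all 32851 windows, and the second in 0 of the 12 and in 7.15% of all windows. Sequences before a start of Slc1a4 (chr11:20332710-20332793), of Slc3a2 (chr19:8713898-8713977) and of Slc38a2 (chr15:96699729-96699808), all on the minus strand, are shown 5′ to 3′. These genes were shown because they differed in direction or in the motif, and the first listed window of each was used. For Slc3a2 that start lies inside the annotated gene (8706882 to 8723369), away from its outer 5′ end. Any other starts of these genes are not shown. Capitals mark the match, which reads on the opposite strand and spans the start.
Slc1a4: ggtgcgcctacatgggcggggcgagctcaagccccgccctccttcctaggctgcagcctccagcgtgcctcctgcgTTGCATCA
Slc3a2: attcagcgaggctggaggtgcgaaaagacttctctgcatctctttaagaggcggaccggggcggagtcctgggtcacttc
Slc38a2: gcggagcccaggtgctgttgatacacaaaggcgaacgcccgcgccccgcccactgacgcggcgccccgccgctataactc
A match or its absence in this window describes these letters only.

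Slc38a1 and Slc38a2, neighbouring genes on chromosome 15, differed from each other. Both encode sodium-coupled carriers of glutamine and other small neutral amino acids, and Slc38a2 is known to be induced when cells are starved of amino acids. Slc38a2 (96687392 to 96699730, minus strand) measured 105, 125 and 108 TPM in the rMANF libraries and 138, 114 and 119 TPM in the vehicle libraries. The groups overlapped because rMANF replicate 2 lay above both vehicle replicates 2 and 3. Its log2 difference was −0.14 ± 0.11 (SE; 95% interval −0.38 to 0.11; limma, adjusted p = 0.514), and it was −0.05 without vehicle replicate 1 and −0.21 without rMANF replicate 2. Under median-of-ratios scaling the difference was −0.18 and the groups no longer overlapped, as in 1694 of 12852 tested genes in that direction.

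Slc38a1 (96571418 to 96642913, minus strand) lay slightly higher with rMANF. It measured 35.6, 40.2 and 37.2 TPM in the rMANF libraries and 33.8, 31.4 and 34.2 TPM in the vehicle libraries. The nearest libraries were 1.38 TPM apart, within the SD of either group, and the log2 difference was 0.18 ± 0.09 (SE; limma, adjusted p = 0.296). The ratio of Slc38a2 to Slc38a1 was 2.94, 3.11 and 2.89 with rMANF and 4.09, 3.62 and 3.49 with vehicle. It was lower in every rMANF library than in every vehicle library, by 0.32 ± 0.08 on the log2 scale (SE; exact permutation p = 0.1, adjusted 0.133).

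**Figure D3:**
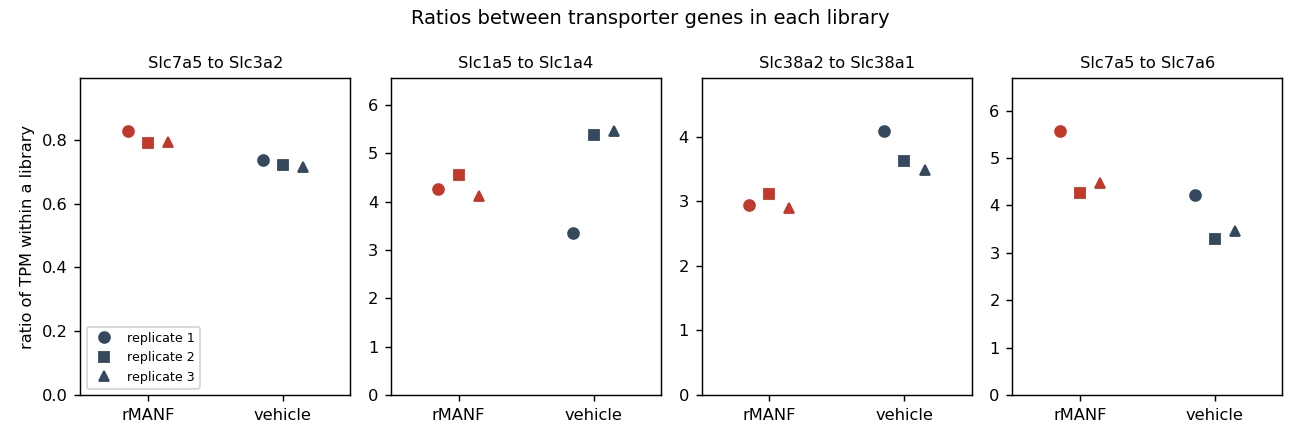
Ratios of TPM between partner or related transporter genes within each library (vertical axes, each starting at 0), for 3 rMANF and 3 vehicle libraries. The ratios Slc7a5 to Slc3a2 and Slc7a5 to Slc7a6 are higher, and Slc38a2 to Slc38a1 lower, in every rMANF library than in every vehicle library, while Slc1a5 to Slc1a4 with rMANF lies inside the vehicle range of 3.34 to 5.46.

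Slc7a1 encodes CAT1, the main carrier of arginine and lysine in many cells, which in mice also serves as a retrovirus receptor. It lies on chromosome 5 (148327410 to 148399904, minus strand). Its levels were 34.4, 35.5 and 32.6 TPM with rMANF and 32.2, 30.2 and 29.7 TPM with vehicle. Only 0.404 TPM separated the groups, and after rescaling without mitochondrial and haemoglobin genes they overlapped. The log2 difference was 0.15 ± 0.08 (SE; limma, adjusted p = 0.353), and 0.09 under quantile normalization.

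Slc6a9 encodes GLYT1, a sodium- and chloride-dependent glycine carrier that supplies glycine to erythroid and other cells. On chromosome 4 (117834506 to 117875198, plus strand), it measured 15.5, 14.7 and 13.9 TPM with rMANF and 12.2, 11.3 and 12.9 TPM with vehicle. The groups did not overlap, and the log2 difference was 0.26 ± 0.10 (SE; limma, adjusted p = 0.193). The 5 erythroid markers summed to 209 to 302 TPM with rMANF and 196 to 682 TPM with vehicle, and their part in the Slc6a9 values was not tested. Exons of Ccdc24 (7.31 to 9.20 TPM) share 1429 bases and those of B4galt2 (9.64 to 18.4 TPM) 46 bases with Slc6a9 on the opposite strand, and these reads cannot be told apart without strand.

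By level the 10 genes formed a stable order apart from a single exchange near the top. Slc7a5 was above Slc38a2 in each of the 3 rMANF libraries and below it in each of the 3 vehicle libraries, as the ratio of Slc7a5 to Slc38a2 was 1.35, 1.02 and 1.15 with rMANF and 0.765, 0.792 and 0.828 with vehicle. That ratio was picked after its values were seen. The GC content of Slc7a5 (56.7%) and Slc38a2 (44.3%) lay far apart, and the part of the library GC trends in this exchange was not tested. In every other neighbouring pair the upper gene was above the lower in all 6 libraries. In the rMANF group only Slc38a2 and Slc7a5 had ranges that overlapped between neighbours. In the vehicle group the ranges of 3 pairs overlapped, namely Slc3a2 and Slc38a2, Slc38a1 and Slc7a1, and Slc6a9 and Slc43a2. All 10 genes summed to 663, 669 and 622 TPM with rMANF and 591, 539 and 567 TPM with vehicle. Of that sum Slc7a5 took on average 20.1% with rMANF and 17.4% with vehicle, and Slc38a2 17.3% with rMANF and 21.9% with vehicle.

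Single libraries shaped several of these values. Within the rMANF group replicates 1 and 2 were the highest for 5 genes each and replicate 3 was the lowest for 6. Within the vehicle group replicate 1 was the highest for 5 genes and replicate 2 the lowest for 6. Vehicle replicate 2 also held the most skeletal muscle marker RNA, and without it the log2 difference of Slc7a5 was 0.35, that of Slc3a2 0.21 and that of Slc1a5 0.37. With vehicle replicates 1 and 2 both left out, a fit chosen after seeing the data, the log2 difference of Slc43a2 was 0.19 and that of Slc1a4 0.58.

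**Figure D4:**
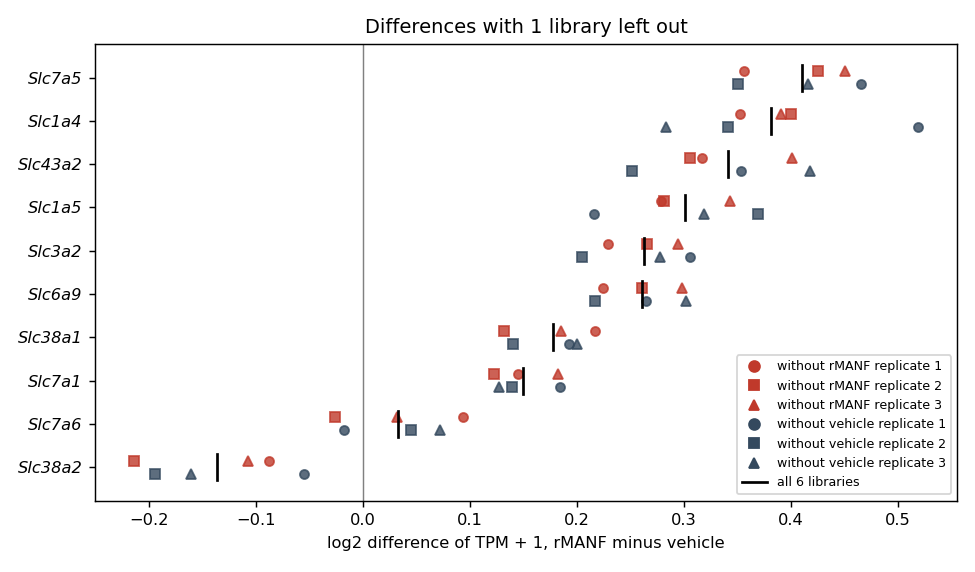
Log2 differences of TPM + 1 (horizontal axis, rMANF minus vehicle) of the 10 transporter genes in the 6 fits that left out 1 library each (symbols) and in the fit of all 6 libraries (black lines). Slc1a4 ranged most, from 0.28 to 0.52, and Slc7a6 crossed 0.

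The libraries also differed in how expression followed GC content. The Spearman correlation across genes between a library's deviation from the gene mean and transcript GC content was 0.42, 0.13 and 0.30 in the rMANF libraries and −0.51, −0.04 and −0.0053 in the vehicle libraries. Transcripts of Slc6a9 (56.8% GC), Slc7a5 (56.7%) and Slc43a2 (56.0%) had the highest GC content of the 10, and those of Slc38a2 (44.3%) the lowest. With the GC trend of each library removed, the log2 difference of Slc7a5 was 0.29, of Slc43a2 0.24, of Slc3a2 0.18, of Slc6a9 0.13 and of Slc38a2 −0.06. Slc1a4 moved less, from 0.38 to 0.34, and Slc38a1 rose from 0.18 to 0.22. Slc1a5 went from 0.30 to 0.25, Slc7a1 from 0.15 to 0.12 and Slc7a6 from 0.03 to 0.01. Each of the 8 genes kept its 3 rMANF libraries above its 3 vehicle libraries after this step, where 2253 of the 12828 genes with a GC value were so placed. Of the 10 transporter genes 0 had a limma adjusted p below 0.05 after it, and of the 12828 genes 1 had.

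Most other amino acid transporter genes of the plasma membrane were too low to test. Of 24 such genes, 19 had rows and 6 were expressed highly enough to test (mean of at least 1 TPM), while 13 stayed between 0 and 1.05 TPM. Among the 6 tested, 0 passed limma's adjusted threshold, 2 (33.3%, against 18.9% of tested genes) had all rMANF values above all vehicle values and 0 (against 9.02%) all below, and the median log2 difference was −0.02, against 0.26 for the 10 transporter genes and 0.04 for all tested genes. Slc6a6, the taurine transporter gene, was the most abundant of them, at 65.7 ± 7.43 TPM with rMANF and 49.9 ± 5.40 TPM with vehicle (SD, n = 3 each; log2 difference 0.39 ± 0.12, SE; limma, adjusted p = 0.139). Slc7a3, a cationic amino acid transporter gene, measured 7.04 ± 0.354 TPM with rMANF and 6.01 ± 0.589 TPM with vehicle (limma, adjusted p = 0.372). It was the other gene without overlap, but only 0.0139 TPM lay between its nearest libraries, against 1.29 TPM for Slc6a6. Slc7a8, the light chain LAT2, lay lower on average, at 3.76 ± 1.28 TPM with rMANF and 5.71 ± 0.889 TPM with vehicle, with groups that overlapped (limma, adjusted p = 0.215).

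Carriers of the lysosome, some of which release amino acids from degraded protein, were listed together with proton-coupled amino acid carriers. Of 13 genes 10 were tested, with 5 higher (against 57.3% of tested genes) and 5 lower on average, 0 without overlap upward (against 18.9%) or downward (against 9.02%) and 0 past limma's adjusted threshold. Mfsd12, a lysosomal cysteine importer gene, measured 27.8 ± 3.09 TPM with rMANF and 22.6 ± 3.67 TPM with vehicle. Slc15a3, a peptide and histidine carrier gene of macrophage lysosomes, measured 18.7 ± 2.79 TPM with rMANF and 24.1 ± 3.54 TPM with vehicle. Slc38a7, which exports glutamine from lysosomes, measured 13.0 ± 0.559 TPM with rMANF and 11.4 ± 0.998 TPM with vehicle (SD, n = 3 each).

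**Figure D5:**
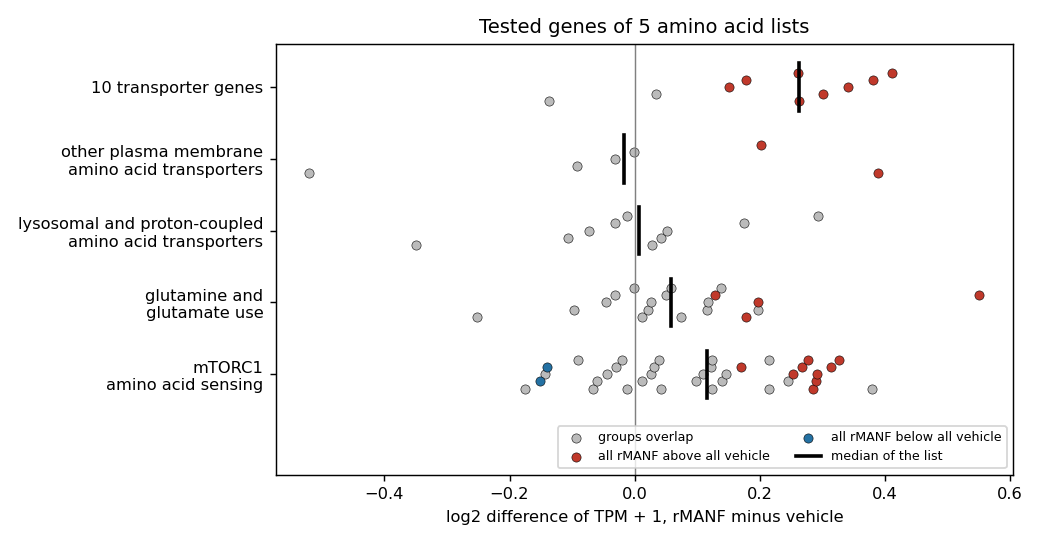
Log2 differences of TPM + 1 (horizontal axis, rMANF minus vehicle) of the tested genes in 5 lists around amino acid use, with the median of each list as a bar. The 10 transporter genes have a median of 0.26, and the medians of the other 4 lists run from −0.02 to 0.12.

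The genes of amino acid sensing and mTORC1 had a median log2 difference of 0.12, against 0.04 for all tested genes. Of 38 genes 36 were tested, 0 passed limma's adjusted threshold, 25 lay higher (against 57.3% of tested genes) and 11 lower on average. For 9 of them (25%, against 18.9% of tested genes) every rMANF library was above every vehicle library, and for 2 (5.56%, against 9.02%) every rMANF library was below, Lamtor3 and Lamtor5, subunits of the Ragulator complex that anchors mTORC1 to the lysosome. Mlst8, a subunit of mTORC1 itself, measured 11.9 ± 0.408 TPM with rMANF and 9.38 ± 0.754 TPM with vehicle (SD, n = 3 each; log2 difference 0.31 ± 0.10, SE; limma, adjusted p = 0.155). Mios, of the GATOR2 complex, measured 17.2 ± 1.34 TPM with rMANF and 14.1 ± 0.675 TPM with vehicle. Sesn2, which encodes a leucine sensor and is a known ATF4 target, stood at 21.8, 19.7 and 14.5 TPM with rMANF and 14.6, 13.2 and 14.0 TPM with vehicle, and rMANF replicate 3 lay inside the vehicle range. The abundant Lamtor2 and Sec13 differed by −0.18 ± 0.11 and −0.07 ± 0.09 on the log2 scale (SE).

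Enzymes that use glutamine and glutamate included the gene nearest to the threshold among all these lists. Cad, the enzyme that opens pyrimidine synthesis with glutamine, measured 34.2, 34.8 and 32.4 TPM in the rMANF libraries and 20.04, 21.6 and 27.1 TPM in the vehicle libraries. The log2 difference was 0.55 ± 0.12 (SE), with a limma adjusted p of 0.0963. All 19 enzyme genes were tested, 0 passed at an adjusted p of 0.05, and 4 had all rMANF values above all vehicle values (21.1%, against 18.9% of tested genes). These were Cad, Ctps, Glud1 and Aldh18a1. Ctps, which makes CTP with glutamine, measured 64.1 ± 3.98 TPM with rMANF and 55.8 ± 2.44 TPM with vehicle, and Glud1, glutamate dehydrogenase, 409 ± 13.3 TPM with rMANF and 362 ± 29.0 TPM with vehicle (SD, n = 3 each). Asns, asparagine synthetase and a known ATF4 target, was at 206 ± 6.48 TPM with rMANF and 207 ± 22.3 TPM with vehicle, with a 95% interval of −0.22 to 0.22 for the log2 difference.

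The transcripts of the regulators overlapped between groups. Atf4 measured 530, 480 and 469 TPM with rMANF and 504, 460 and 424 TPM with vehicle, a log2 difference of 0.09 ± 0.09 (SE; 95% interval −0.12 to 0.31; limma, adjusted p = 0.610). Myc measured 309.5, 352 and 340 TPM with rMANF and 380, 246 and 295 TPM with vehicle, a log2 difference of 0.14 ± 0.15 (SE; 95% interval −0.20 to 0.49; limma, adjusted p = 0.635). The vehicle libraries spread most for Myc, with replicate 1 above all rMANF libraries and replicates 2 and 3 below them.

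Across 11343 other tested genes, profiles were compared with those of the leading heterodimer by the root mean square difference of log2 values centred on each gene's mean over the 6 libraries. Nearest to Slc7a5 were Klf2 (0.0255), Phlda3 (0.0264) and Gng7 (0.0307), and nearest to Slc3a2 were Tysnd1 (0.0200), Ehmt1 (0.0232) and Csrp1 (0.0268). Klf2 measured 165, 145 and 148 TPM with rMANF and 125, 105 and 116 TPM with vehicle. Between the partners themselves the distance was 0.0777, which ranked Slc3a2 99th from Slc7a5 and Slc7a5 490th from Slc3a2, and among the 10 genes Slc6a9 was nearest to Slc3a2 (0.0403). These distances describe the values in 6 libraries.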

How the data were processed

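RNA of 6 libraries (3 rMANF, 3 vehicle) was extracted with QIAzol and sequenced after library construction with Nextera XT, a kit without strand marking, per the labels' protocols. The submitters' processing notes name mm10 as the build and list cutadapt, fastp, Salmon 0.14.1 and HTSeq 0.11.0; the step that gave the values, the annotation and any filter are not stated there. Log2 TPM values per gene were deposited by the authors, and −9 was read as 0 TPM. Back-transformed columns summed to within 19.5 TPM of the full TPM scale. There were 0 columns from other samples. Since TPM keeps no read number, depth is unknown, no counting interval was computed, and precision is the spread between libraries, whose mice the labels do not identify.

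The 12865 genes averaging 1 TPM or more were fitted on log2(TPM + 1), a scale that shrinks changes of low genes, with limma 3.58.1 in R 4.3.3 (no covariates, mean-variance trend, two-sided, Benjamini-Hochberg adjustment over all tested genes, threshold 0.05). The fit was tested on simulated data. Ratios were tested with exact permutation in scipy 1.17.1 with a smallest p of 0.1. GENCODE M21 (GRCm38, which is mm10) gave coordinates, overlaps and GC content (99.7% of tested genes). The members, lists, motifs and tests were chosen with earlier results of these data known. Named beside the 10 genes were, from each list, the 2 genes of highest mean TPM, the 3 of smallest p, any in a count of at most 5 (chosen after their values were seen), Atf4, Myc and the 3 nearest profiles, leaving out predicted genes, Rik clones and pseudogenes. Alternatives covered pseudocounts of 0.1 and 5 TPM, other filters, scalings and variance models, library weights, the replicate block, GC correction and each library left out. The shared replicate numbers did not pair the libraries.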

Additional observations from a re-analysis of the deposited data

How the results depend on the processing

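Of the 10 log2 differences, 9 kept their sign in each of the 20 alternative fits, and that of Slc7a6 turned: it was −0.0047 under median-of-ratios scaling, −0.0231 under quantile normalization, −0.0371 with library weights and −0.0437 with vehicle replicates 1 and 2 both left out, a fit chosen after seeing the data. With 1 library left out it ran from −0.0260 to 0.0941, and was −0.0171 in the fit lacking vehicle replicate 1. Transporter genes with an adjusted p below 0.05 numbered 2 with library weights, where limma called 737 of all genes (5.73%): Slc7a5 (0.42, adjusted p = 0.0307) and Slc1a4 (0.53, adjusted p = 0.0302). Over all alternatives the adjusted p of Slc7a5 ran from 0.0307 to 0.335 and that of Slc1a4 from 0.0302 to 0.367. At a threshold of 0.10 the counts were 1 of the 10 transporter genes and 351 of the 12865 tested genes. Over all genes at 0.05 the count was 1 with the GC trend removed, 3 with the replicate block, 6 with vehicle replicates 1 and 2 both left out, and 0 to 18 with 1 library left out (2 without rMANF replicate 1 and 18 without vehicle replicate 1). Among transporter genes 0 passed in each of these fits other than library weights. Genes whose rMANF libraries were all above the vehicle libraries numbered 7 of the 10 under median-of-ratios scaling (2137 of 12852 tested genes). They also numbered 7 once mitochondrial and haemoglobin genes were taken out of the TPM sum (2195 of 12904). They numbered 8 under quantile normalization (2258 of 12865) and with the GC trend removed (2253 of 12828), against 8 and 2436 of 12865 as deposited. Pseudocounts, filters and leaving out libraries cannot undo such a separation. Transporter genes with all rMANF libraries below numbered 1 (Slc38a2) under median-of-ratios scaling, against 1694 of 12852 tested genes. With 1 library left out they numbered 0 to 1, the 1 being Slc38a2 without rMANF replicate 2, against 1930 of 12852 tested genes. Otherwise they numbered 0. The log2 ratio difference of Slc1a5 to Slc1a4 was −0.10 with all libraries, 0.014 without vehicle replicate 2 and 0.025 without vehicle replicate 3, and ran from −0.33 to 0.025 with 1 library left out. The other 3 ratios kept their direction. Same-numbered libraries deviated together with correlations of −0.07, 0.03 and 0.05 across genes, so the numbers were not taken as pairs. With the replicate block the adjusted p of Slc7a5 was 0.149, and with the block and the GC trend removed 0.188. The cause of these shifts was not tested. TPM gives no depth, and 3 libraries per group set the precision.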
